A study of Arabidopsis thaliana with 4 samples.

Results

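Cadmium reaches plant roots through the same proteins that move nutrients, and the transcript levels of 30 transporter loci are described here in roots of Arabidopsis thaliana. The loci were chosen by their deposited description, which had to contain the word transporter and not name an ABC, auxin, nitrate or sulfate transporter. Some loci were also left out by identifier, among them the iron transporter IRT1, the heavy metal ATPase HMA3 and the amino acid exporters UMAMIT17 and UMAMIT20. The rule itself used no measured value, though it was set with earlier results of these data known. The deposited tables also hold only gene models that differed at least 2-fold with cadmium. Their deposited false discovery rate (FDR) ran up to 0.000967 in Col and 0.000987 in ein3eil1, so listed ratios lie away from 1 by selection. The 30 loci are part of 1487 loci in either table: 19 of 988 in the table of ein3eil1 and 18 of 791 in that of Col, with 7 in both. LHT1 was listed with 2 transcript models, which makes 31 models in all.

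Although sugar transporters were looked for, no description among the 30 loci named a sugar. By substrate the loci were 11 for amino acids, 7 for metals and molybdate, 6 for phosphate, borate and organic acids, 2 for potassium, sodium or chloride, 1 for ammonium and 1 for peptides. For 1 more, PAM16L, the description named protein import into mitochondria, and the last, ABCG16, was described as an ABC-2 type transporter with no substrate. ABCG16 belongs to the ABC proteins that the choice meant to leave out, and its description escaped the wording.

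There were 4 groups with 1 library each: ein3eil1 with 150 µM CdSO4 for 6 h, ein3eil1 untreated, Col with 150 µM CdSO4 for 6 h, and Col untreated. All were seedlings of 5 days raised on MS medium. The tissue is labelled root tip and primary root, although the protocols in 1 place also mention shoots. Col is the wild type Col-0. The mutant carries the ein3-1 and eil1-1 alleles in genes for EIN3 and EIL1, transcription factors at the end of ethylene signalling. The controls are labelled only as untreated, and nothing says that they had a mock change of medium, so Cd and the handling that came with it cannot be told apart. With 1 library per group no test across plants was possible, and every interval below is a 95% interval for counting error only.

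Membrane transporters set which ions and metabolites enter root cells, leave them or are stored in the vacuole. Metal carriers of the ZIP family bring zinc and iron into the cytosol, and several of them can also carry cadmium. Amino acid carriers fall into proton-coupled importers, such as the LHT and AAP proteins, and the UMAMIT proteins, many of which let amino acids out of cells. Carriers of organic acids and phosphate work at the plasma membrane, the vacuole, plastids and mitochondria.

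The 4 libraries held 16773595 to 19192279 reads. Neither EIN3 nor EIL1 was listed in either table, so these values hold no check of the genotype. Of the marker lists, that of the endodermis, the inner root barrier layer, had the most genes listed. Of the 7 endodermis genes reported here, 1 was lower with Cd in ein3eil1, CASP2 with 54 RPKM with Cd and 116 RPKM without. In Col 4 were lower, together 162 RPKM with Cd and 374 RPKM without, with CASP5 the furthest apart at 6.44-fold lower. Of 10 photosynthesis genes 3 were higher with Cd in ein3eil1, together 75 RPKM with Cd and 31.4 RPKM without, and none was listed in Col. Of the other lists, 1 of 7 root hair genes was higher and 1 of 6 xylem genes lower in ein3eil1, and none of 4 phloem and 3 root cap genes was listed. The part of these marker differences in the transporter values was not tested, and in a bulk sample fewer cells of a type and less RNA per cell cannot be told apart.

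In ein3eil1, 13 of the 19 listed transporter loci were at least 2-fold higher with Cd and 6 were lower. All listed loci of that table split into 62.2% higher and 37.8% lower. In Col, 9 of 18 were higher and 9 lower, beside 56.3% and 43.7% of all listed loci. These are shares among loci already past the 2-fold limit, so they give directions and not how often transporters responded. All 19 and all 18 loci reached 1 RPKM, a read count scaled to model length and library total, in at least 1 library. The median log2 ratio was 1.17 in ein3eil1, against 1.16 for all listed loci, and in Col it was close to 0 because the higher and lower loci were equal in number, against 1.07 for all listed loci. Most were under 10 RPKM: 4 of 19 loci in ein3eil1 and 7 of 18 in Col reached that level, beside 424 of 988 and 350 of 791 listed loci.

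**Figure D1:**
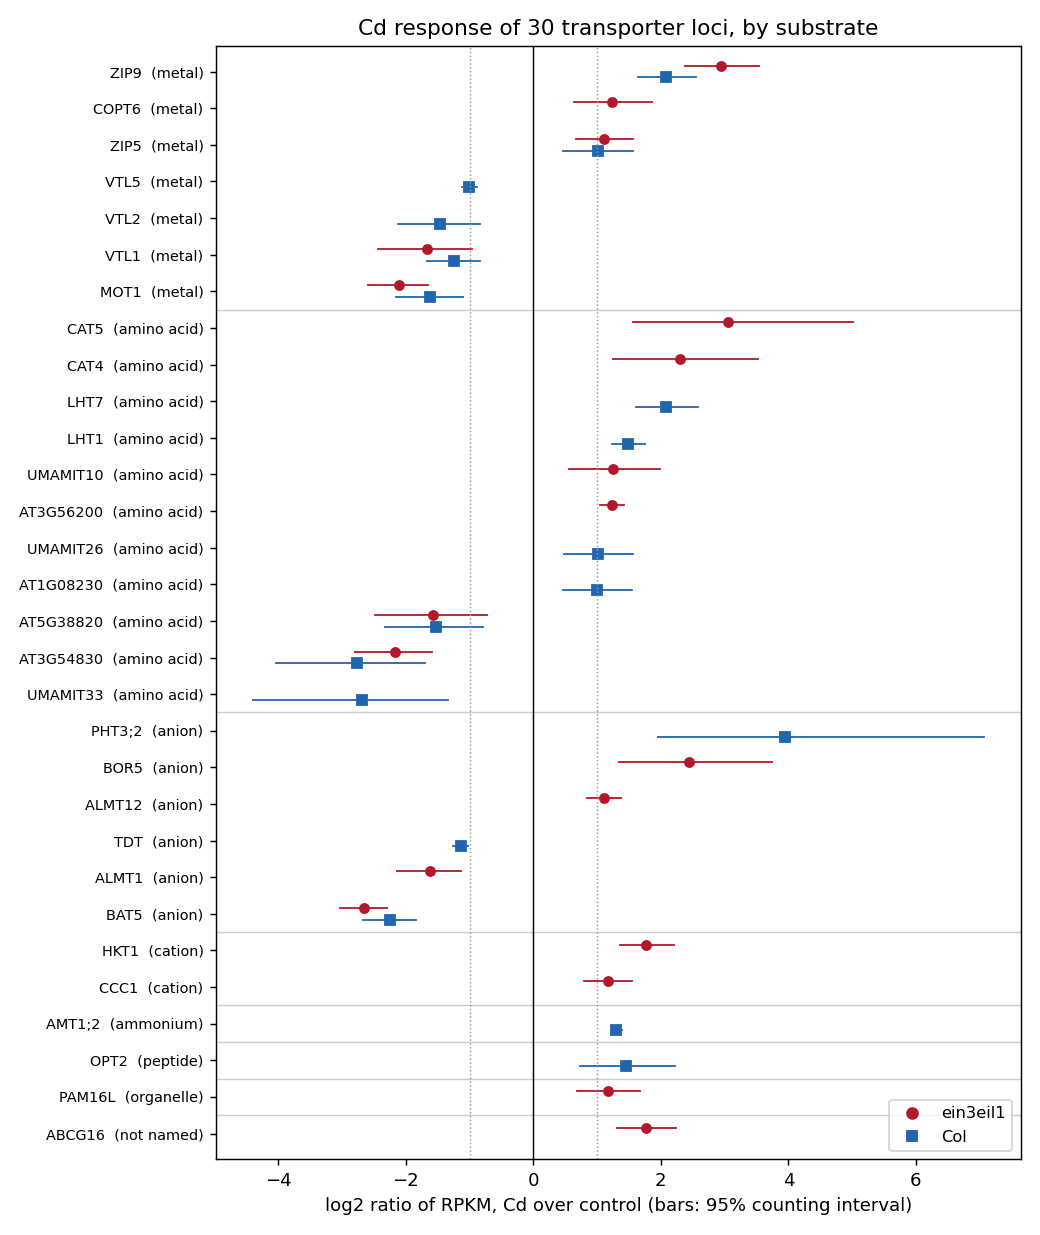
Log2 ratio of RPKM, Cd over control, for the 30 transporter loci by substrate (y axis), with red circles for ein3eil1, blue squares for Col and bars for the 95% counting interval; dotted lines mark 2-fold and LHT1 is shown by its model with more reads. The 7 loci with both symbols lie on the same side of 0 in both genotypes, with ZIP9 at 2.94 in ein3eil1 and 2.09 in Col.

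Among the 7 metal loci chosen, the zinc transporter gene ZIP9 (chr4:15932603-15934267, minus strand, in the coordinates of the deposited tables) had the highest ratio in both genotypes. It stood at 13.1 RPKM with Cd and 1.71 RPKM without in ein3eil1, and at 11.3 RPKM with Cd and 2.67 RPKM without in Col. Both Cd libraries were far above both control libraries. The ratio was 7.65-fold (5.22 to 11.6) in ein3eil1 and 4.25-fold (3.13 to 5.87) in Col. ZIP5 (chr1:1545106-1547849, minus strand) was also higher in both, at 5.84 RPKM with Cd and 2.70 RPKM without in ein3eil1, and at 3.51 and 1.74 RPKM in Col. Its ratios were 2.17-fold (1.60 to 2.97) and 2.01-fold (1.39 to 2.96), close to the 2-fold limit of the tables. The remaining higher metal gene was COPT6, for a copper transporter, listed in ein3eil1 with 6.78 RPKM with Cd and 2.89 RPKM without, 2.35-fold (1.55 to 3.62).

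ZIP9 and ZIP5 are known in this species as zinc deficiency genes, controlled by the factors bZIP19 and bZIP23 through a palindromic site whose inner 8 letters are TGTCGACA. The 1000 bases before the outermost RefSeq transcript start of each gene were searched for these letters, which read the same on both strands, in the TAIR10.1 genome. The stretches of 30 bases below are shown because they set ZIP5 and ZIP9, higher with Cd, beside the other ZIP genes that hold the exact letters. Capitals mark the 8 letters, or in ZIP9 the nearest stretch.
ZIP5: cgtacaatttaTGTCGACAttctctcgaca
ZIP9: ctagatgaaaaTGACGACAttctatggtca
ZIP4: taacgcgaaaaTGTCGACAtatttggctaa
ZIP10: ttaattagtaaTGTCGACActtactttgat
ZIP12: attaccgtgcaTGTCGACAttactcccaaa
IRT3: ttacaacaaaaTGTCGACAtttagttggcg

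The exact letters lay 831 bases before the start of ZIP5 (chr1:1548662-1548691, minus strand). The stretch in ZIP9 (chr4:15934827-15934856, minus strand) lay 83 bases before its start and differs by T3A, counted from 1 at the 5′ end of the 8 letters. For ZIP9 the outermost RefSeq start lies upstream of the deposited model, whose 5′ end is at 15934267. The bases between them were not searched. In ZIP4 (chr1:3667160-3667189, minus strand), ZIP10 (chr1:11177460-11177489, minus strand), ZIP12 (chr5:24959930-24959959, plus strand) and IRT3 (chr1:22447305-22447334, minus strand) the letters began 39, 116, 166 and 24 bases before the start. None of these 4 genes was listed in either table, while IRT1, a ZIP family gene lower with Cd in both, had no match even with 1 mismatch. In all, 5 of 14 ZIP family genes with a RefSeq transcript held the exact letters, against 283 of 27444 protein-coding loci (1.03%). The letters were searched because the site is known from genes of this family, so that share is no result about Cd. Of the 30 transporter loci, 1 held the exact letters. With at most 1 mismatch they were in 8 of 14 ZIP genes and in 7 of the 28 transporter loci outside that family, against 23.6% of all loci. None of those 28 had an exact match. A match describes letters and shows no binding.

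Genes for vacuolar iron transporter-like proteins, relatives of VIT1, which loads iron into vacuoles, were lower with Cd. VTL5 (chr3:9174457-9175776, plus strand) was the most abundant of the listed transporter loci in untreated Col, at 57.1 RPKM with Cd and 115 RPKM without, 2.01-fold lower (1.85 to 2.18). VTL1 (chr1:7404383-7405281, plus strand) had 1.46 RPKM with Cd and 4.65 RPKM without in ein3eil1, 3.19-fold lower (1.95 to 5.41). In Col it had 4.51 RPKM with Cd and 10.7 RPKM without, 2.36-fold lower (1.78 to 3.17). The control library was above the Cd library in both genotypes, and untreated ein3eil1 was at about the level of Col with Cd. VTL2 was listed in Col only, at 1.72 and 4.73 RPKM, 2.75-fold lower (1.78 to 4.37). Of 4 loci annotated as VIT1 or VTL, 1 was thus lower in ein3eil1 and 3 were lower in Col, beside 1.27% and 1.21% of all protein-coding loci. Relatives annotated otherwise are not counted, so the 4 may not be the whole family. The set was taken after the values were seen, so these shares cannot tell whether such genes respond more often than others.

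MOT1, the molybdate transporter (chr2:10933061-10934551, minus strand), was lower with Cd in both genotypes. It had 1.92 RPKM with Cd and 8.29 RPKM without in ein3eil1, 4.33-fold lower (3.15 to 6.05), and 1.60 and 4.89 RPKM in Col, 3.06-fold lower (2.14 to 4.46). The levels with Cd were close to each other, and the untreated mutant was the highest of the 4 libraries.

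**Figure D2:**
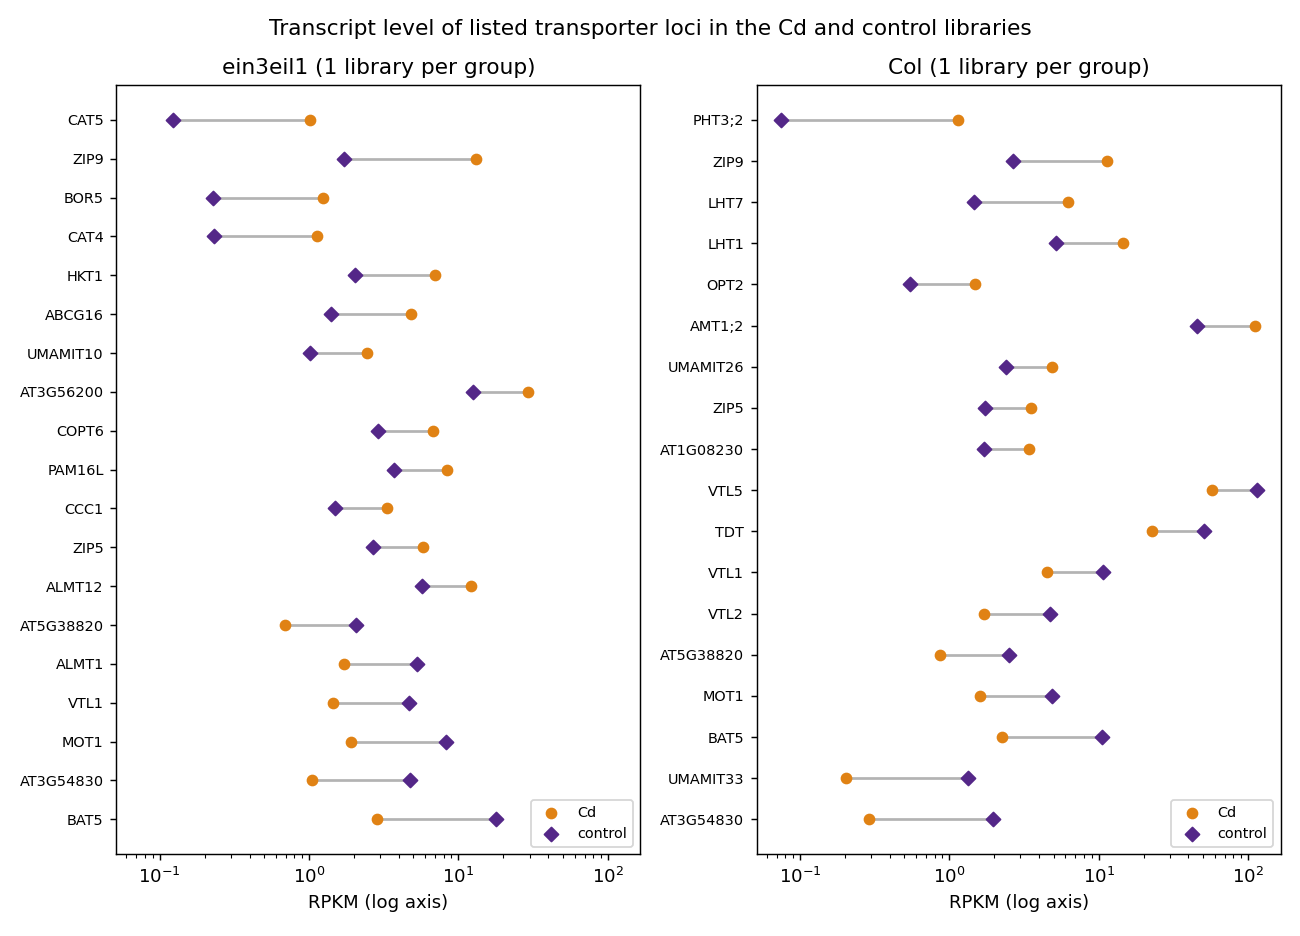
RPKM (log axis) of each listed transporter locus in the Cd library (orange circles) and the control library (purple diamonds), in ein3eil1 (left) and Col (right), sorted by ratio. AMT1;2 at 112 RPKM with Cd and VTL5 at 115 RPKM in the control lie furthest right in Col, while PHT3;2 and CAT5 rest on control levels of 0.0742 and 0.122 RPKM.

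Amino acid carriers were the largest class, and most were listed in ein3eil1 only or in Col only. Absence from a list sets no value for that genotype. In Col the lysine and histidine transporter genes LHT7 and LHT1 were higher. LHT1 (chr5:16323651-16327281, plus strand), which takes up amino acids into root cells, had 14.6 RPKM with Cd and 5.20 RPKM without, 2.80-fold (2.34 to 3.37). Its second listed model had 6.15 RPKM with Cd and 2.52 RPKM without, 2.44-fold (1.87 to 3.22). The listed models overlap and each had to be 2-fold apart to be listed, so the second adds no separate support. The locus has 3 reference transcripts. LHT7 (chr4:16738339-16740465, minus strand) had 6.26 RPKM with Cd and 1.48 RPKM without, 4.24-fold (3.07 to 5.96). AT1G08230, of the transmembrane amino acid transporter family, was at the limit of the table in Col, with 3.43 RPKM with Cd and 1.71 RPKM without, 2.002-fold (1.39 to 2.92).

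In ein3eil1 the cationic amino acid transporter genes CAT5 and CAT4 were higher, from few reads. CAT5 had 33 reads with Cd and 4 without, or 1.02 and 0.122 RPKM, an 8.34-fold ratio with a wide interval of 2.97 to 32.4. CAT4 had 44 and 9 reads, or 1.14 and 0.230 RPKM, 4.94-fold (2.38 to 11.5). AT3G56200, another gene of the transmembrane amino acid transporter family (chr3:20850029-20852027, plus strand), was the most abundant transporter locus of the ein3eil1 table. It had 29.4 RPKM with Cd and 12.5 RPKM without, 2.35-fold (2.07 to 2.68).

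The transmembrane family also held loci that were lower in both genotypes. AT3G54830 (chr3:20311901-20315030, minus strand) had 1.05 RPKM with Cd and 4.73 RPKM without in ein3eil1, 4.50-fold lower (2.99 to 6.98). In Col it had 0.291 and 1.97 RPKM, 6.77-fold lower (3.23 to 16.4), which rests on 8 reads with Cd and 62 without. AT5G38820 had 0.695 RPKM with Cd and 2.06 RPKM without in ein3eil1, 2.97-fold lower (1.66 to 5.60), and 0.870 and 2.51 RPKM in Col, 2.88-fold lower (1.73 to 5.02). For both genes the 2 Cd libraries lay below the 2 control libraries.

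The UMAMIT genes among the chosen loci differed in direction and none was listed in both tables. UMAMIT17 and UMAMIT20, left out by identifier, were both lower with Cd in Col. UMAMIT10 was higher in ein3eil1, at 2.43 RPKM with Cd and 1.02 RPKM without, 2.39-fold (1.47 to 3.98). In Col, UMAMIT26 was higher at 4.88 and 2.42 RPKM, 2.02-fold (1.40 to 2.95). UMAMIT33 was lower there, at 0.205 and 1.33 RPKM, 6.47-fold (2.54 to 21.1) on 5 reads with Cd and 37 without. The UMAMIT33 value is that of 1 model at a locus with 5 reference transcripts.

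Among carriers of organic acids, BAT5 (chr4:7210918-7212992, plus strand) had the lowest ratio of all transporter loci listed in ein3eil1. This plastid carrier moves the oxo acids from which methionine-derived glucosinolates are built. It had 2.85 RPKM with Cd and 17.9 RPKM without in ein3eil1, 6.29-fold lower (4.92 to 8.13). In Col it had 2.25 RPKM with Cd and 10.6 RPKM without, 4.73-fold lower (3.57 to 6.35). The control libraries were the high ones, and that of ein3eil1 was the highest. The values are those of the model AT4G12030.2, at a locus with 5 reference transcripts.

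Malate carriers were listed in 1 genotype each. TDT (chr5:19287369-19290465, minus strand), which carries malate across the vacuolar membrane, was 2.21-fold lower in Col (2.04 to 2.39), at 23.0 RPKM with Cd and 50.6 RPKM without. ALMT1, the root malate exporter known for aluminium tolerance (chr1:2658716-2661029, plus strand), was 3.08-fold lower in ein3eil1 (2.18 to 4.41), at 1.71 and 5.26 RPKM. ALMT12, known as an anion channel of guard cells (chr4:9975408-9977722, plus strand), was 2.15-fold higher in ein3eil1 (1.78 to 2.59), at 12.2 RPKM with Cd and 5.69 RPKM without. These related genes thus had opposite directions in the same pair of libraries.

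PHT3;2, a mitochondrial phosphate carrier gene, had the highest ratio of the transporter loci listed in Col, 15.4-fold. Its interval ran from 3.88 to 134 because it had 27 reads with Cd and 2 without. BOR5, of the borate exporter family, was 5.44-fold higher in ein3eil1 (2.53 to 13.4) on 43 reads with Cd and 8 without. Both genes stayed under 2 RPKM.

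Nitrogen and peptide carriers were listed in Col. AMT1;2, for an ammonium transporter of inner root cell layers (chr1:24060770-24062630, minus strand), was the most abundant of the higher loci. It had 112 RPKM with Cd and 45.3 RPKM without, from 3490 and 1617 reads, and its 2.47-fold ratio (2.33 to 2.62) had the narrowest interval of the higher loci. OPT2, of the oligopeptide transporter family, had 1.49 and 0.543 RPKM, 2.74-fold higher (1.65 to 4.67).

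Carriers of sodium, potassium and chloride were listed in ein3eil1. HKT1, which withdraws sodium from the xylem sap (chr4:6391984-6395877, plus strand), had 6.99 RPKM with Cd and 2.05 RPKM without, 3.42-fold higher (2.56 to 4.62). CCC1, a cation-chloride cotransporter gene, had 3.33 and 1.48 RPKM, 2.25-fold higher (1.73 to 2.93). The loci that belong by wording only were also higher in ein3eil1: ABCG16 at 4.79 and 1.41 RPKM, 3.40-fold (2.49 to 4.71), and PAM16L at 8.36 and 3.70 RPKM, 2.26-fold (1.61 to 3.19).

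The design also sets the Cd response of the mutant beside that of Col, and 7 loci had values in all 4 libraries. Of these, ZIP9 and ZIP5 were higher with Cd in both genotypes and BAT5, AT3G54830, MOT1, VTL1 and AT5G38820 lower in both, beside 52.3% and 38.2% of the 285 loci in both tables with 1 RPKM or more. For ZIP9 the log2 ratio was 2.94 in ein3eil1 and 2.09 in Col, a difference of 0.85 with an interval from 0.15 to 1.55. It was the 1 locus of 7 whose interval lay above 0, beside 24.2% of the shared loci, and none lay below 0, beside 16.8%. The other differences ran from -0.50 for MOT1 (-1.18 to 0.18) to 0.59 for AT3G54830 (-0.62 to 1.80), so a difference of response was not detectable at this depth for these 6 loci. For ZIP5 it was 0.11 (-0.57 to 0.78) and for BAT5 -0.41 (-0.95 to 0.12).

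Levels between genotypes compare libraries of 2 separate tables, each scaled to its own read total. Among the untreated libraries AT3G54830 was 2.40-fold higher in ein3eil1 than in Col (1.77 to 3.31) and VTL1 2.29-fold lower (1.74 to 3.06). With Cd the same genes differed in the same directions, AT3G54830 being 3.62-fold higher (1.61 to 9.16) and VTL1 3.10-fold lower (1.89 to 5.26). No other locus of the 7 reached 2-fold in either condition. That is 1 locus higher and 1 lower in each condition, beside 26% higher and 16.1% lower among all shared loci untreated, and 22.8% and 15.8% with Cd. Below 2-fold, MOT1 and BAT5 were each 1.69-fold higher in untreated ein3eil1 (1.36 to 2.11 and 1.46 to 1.95), while with Cd their ratios of 1.198 (0.771 to 1.87) and 1.27 (0.890 to 1.82) had intervals that held 1. ZIP5 was 1.55-fold (1.04 to 2.31) and 1.66-fold (1.25 to 2.22) higher in ein3eil1, untreated and with Cd.

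**Figure D3:**
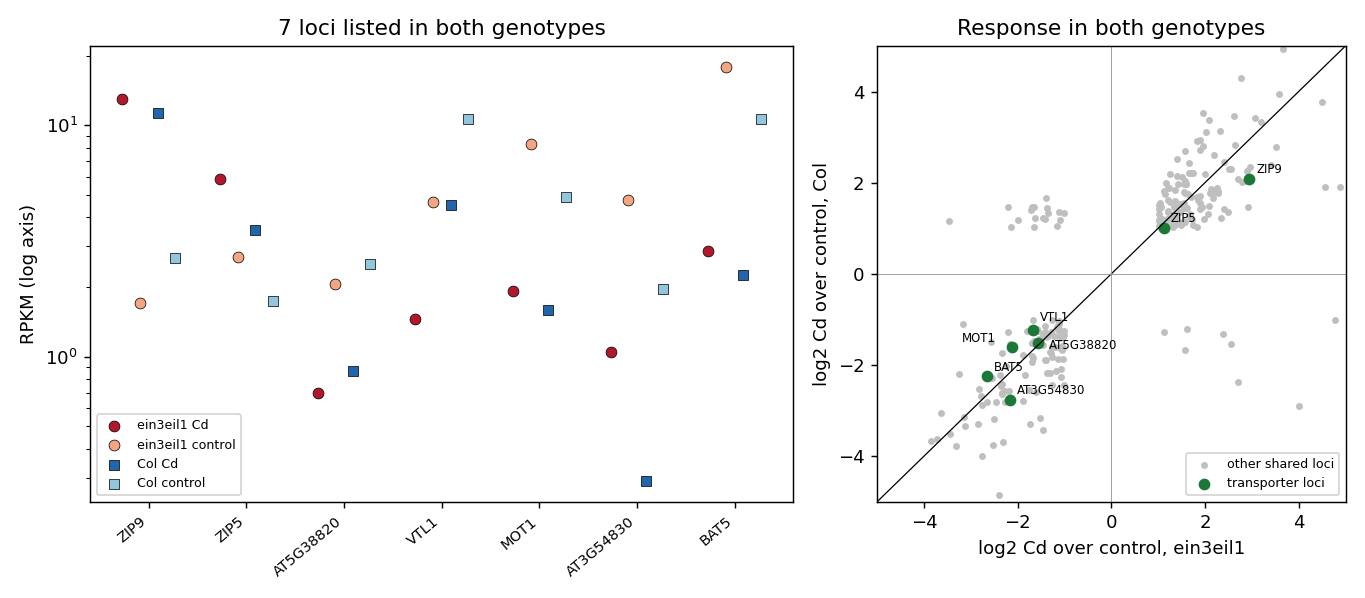
Left, RPKM (log axis) of the 7 loci listed in both genotypes, each library as 1 point; right, log2 ratio of Cd over control in ein3eil1 (x axis) and Col (y axis) for these loci (green) and the other shared loci (grey), with the line of equal response. All 7 lie in the quadrants of equal direction, ZIP9 to the right of the line, and 20 of the 285 points fall outside the plotted range of -5 to 5.

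A further 12 of the 30 loci (40%) were listed in ein3eil1 and not in Col, and 11 (36.7%) in Col and not in ein3eil1. Of all 1487 loci, 46.8% and 33.6% were listed in that way, so the split of the transporter loci was near that of all listed loci. Absence from a table sets no value, since the table omits both ratios under 2-fold and ratios from too few reads, and the difference between the genotypes was not tested for these 23 loci.

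The members were set beside transporter families, taken by gene symbol or synonym whether or not they were listed. Genes of a family that carry another symbol are not counted, so the shares hold for the loci found by symbol. In the 33 families found in the reference, 14 of 298 loci were higher and 3 lower with Cd in ein3eil1 (4.70% and 1.01%), beside 2.19% and 1.27% of all protein-coding loci. In Col 10 were higher and 7 lower (3.36% and 2.35%), beside 1.57% and 1.21%. Of 50 loci in 7 sugar carrier families, 1 was higher in ein3eil1 (2%), and in Col 1 was higher (2%) and 2 were lower (4%). ERD6, a sugar transporter-like gene, was higher in ein3eil1 on 32 reads with Cd and 7 without, 4.62-fold (2.005 to 12.4). In Col the sucrose exporter genes SWEET12 and SWEET11 were 3.30-fold (2.78 to 3.94) and 2.61-fold (2.07 to 3.32) lower, at 7.83 RPKM with Cd and 25.8 RPKM without for SWEET12. SWEET13 was 2.40-fold higher there (1.63 to 3.59).

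The amino acid families showed both directions in Col. Of 75 loci, 4 were higher and 4 lower in Col (5.33% each), beside 1.57% and 1.21% of all protein-coding loci. In ein3eil1 3 were higher (4%) and none was listed as lower, beside 2.19% and 1.27%. The lower loci in Col include UMAMIT17 and UMAMIT20, which the choice left out by identifier. The 75 leave out the genes of the transmembrane amino acid transporter family described above. Of those, AT3G54830 and AT5G38820 were lower in both genotypes, AT3G56200 was higher in ein3eil1 and AT1G08230 higher in Col. The amino acid permease AAP6 was 2.35-fold higher (1.96 to 2.83), at 12.9 RPKM with Cd and 5.47 RPKM without. Its relative AAP3 was 2.16-fold lower (1.97 to 2.36), at 21.2 and 45.6 RPKM. Both are importers whose descriptions do not contain the word transporter. Of 49 loci in metal families, 4 were higher (8.16%) and 2 lower (4.08%) in ein3eil1, beside the same shares of all protein-coding loci. In Col 2 were higher (4.08%) and 1 lower (2.04%), IRT1 being lower in both genotypes. The 49 leave out MOT1 and the VTL genes described above, which were lower wherever they were listed. Among the chosen metal loci, 3 were higher and 2 lower in ein3eil1, and 2 were higher and 4 lower in Col. No gene found by an NRAMP, YSL, CAX, NHX, STP, SUC or PHT1 symbol was listed in either genotype.

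**Figure D4:**
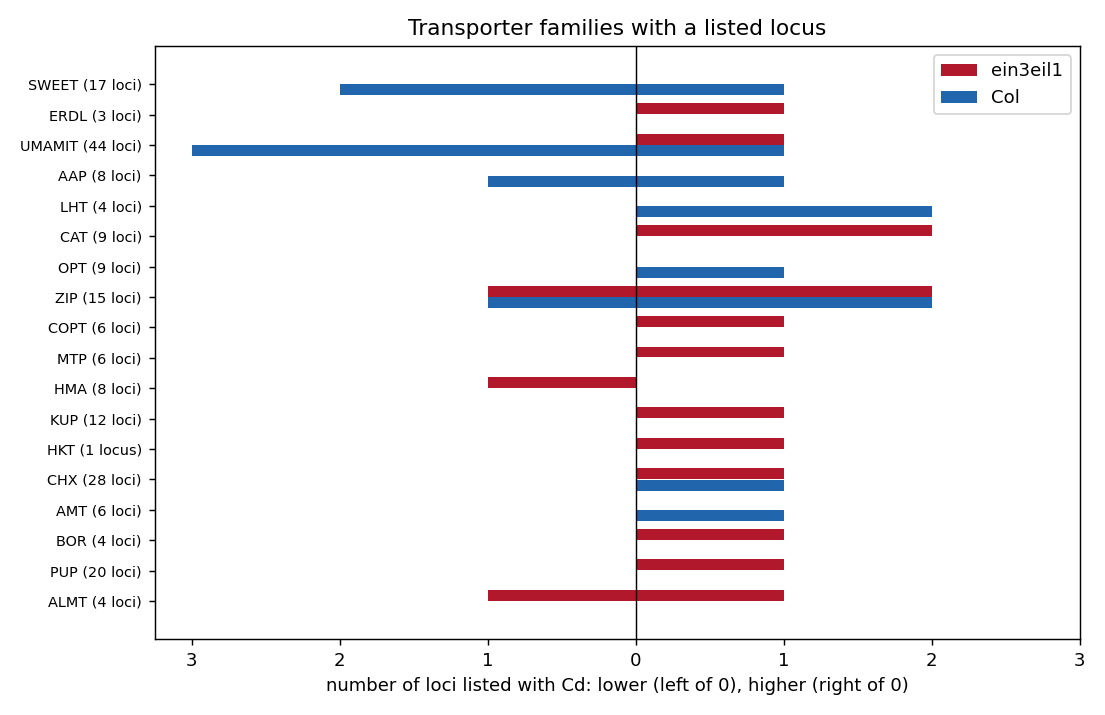
Number of loci listed as lower (left of 0) or higher (right of 0) with Cd in ein3eil1 (red) and Col (blue), for the 18 transporter families with a listed locus. Brackets give the number of loci found by symbol. ZIP genes were listed in both genotypes with 2 higher and 1 lower each, while SWEET, AAP and LHT genes were listed in Col and CAT and ALMT genes in ein3eil1.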

How the data were processed

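Root RNA of 4 groups was sequenced by the submitters, 1 library each, and groups were taken from the sample titles. The aligner, the counter and the build were not given in the sources used here. Per the file headers, each of the 2 deposited tables gives, per gene model, read counts and RPKM of both libraries, their log2 ratio, an FDR and a p-value. The authors' p-values compare the reads of 2 libraries and were used only through the deposited FDR in 1 alternative. The deposited counts are whole numbers, and the library totals (16773595 to 19192279 reads) were worked out from counts and RPKM.

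Ratios of RPKM were computed with no pseudocount. A locus takes its model with the most reads and counts when 2-fold apart with 1 RPKM or more. Intervals of ratios are exact Clopper-Pearson intervals of the share of reads, and those of response differences are normal, from 4 counts. Reads are not independent molecules, so both cover counting error only. The intervals were tested on simulated data, but the outcome is not given here, so no support is drawn from it. Names, families and genome sequence came from RefSeq TAIR10.1. It held 1000 of 1001 and 806 of 807 models, of which 512 in ein3eil1 and 411 in Col shared an end with a RefSeq transcript. Coordinates of genes are those of the deposited tables, and those of the 30-base stretches are TAIR10.1. Reads of paralogs and of several models of a locus may be split in ways not shown here.

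The loci, 34 families (of which AVT matched no symbol) and marker lists were chosen with earlier results of these data known. For 1 marker gene the values are not reported here. The rule for named genes allowed any member with 1 RPKM or more, with full values for loci in both tables and for the 4 largest ratios per substrate class and table. Beyond it, values are also given for LHT1, UMAMIT10, UMAMIT26, AT3G56200, AT1G08230 and VTL5, chosen after their values were seen. Family genes of the same symbol but another function were removed by hand. Protein sequences were not used here. Figures were drawn with matplotlib 3.10.9, and the statistics used SciPy 1.17.1 with pandas 2.3.3 and numpy 2.4.6 under Python 3.11.15.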

Additional observations from a re-analysis of the deposited data

How the results depend on the processing

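No paired analysis was possible because each group had 1 library, and no library could be left out. In Col 9 transporter loci were higher and 9 lower. These became 3 and 3 at 4-fold, 4 and 4 with 5 RPKM or more, and 4 and 5 at loci with 1 reference transcript. With a pseudocount of 1 the counts in Col were 4 higher and 6 lower. They were 3 and 9 with ratios centred on the median of listed models, and 5 and 7 at an FDR of 1e-05 or less. In ein3eil1 13 were higher and 6 lower, which became 4 and 3 at 4-fold, 7 and 3 with 5 RPKM or more, and 8 and 3 at loci with 1 reference transcript. With a pseudocount of 1 the counts in ein3eil1 were 5 higher and 5 lower, and after centring 4 and 6. The excess of higher loci in ein3eil1 thus did not hold under these settings. Leaving out ABCG16 and PAM16L, chosen after seeing the data, gave 11 higher loci. Centring subtracts a log2 median of 1.06 in Col and 1.16 in ein3eil1, since no listed ratio lies near 0. It turned the sign of 5 small ratios: ZIP5 (-0.049) and ALMT12 (-0.062) in ein3eil1, and ZIP5 (-0.049), AT1G08230 (-0.058) and UMAMIT26 (-0.045) in Col. Between genotypes, the 1 higher locus, AT3G54830, became 0 at 4-fold, with a pseudocount of 1 and at loci with 1 reference transcript, untreated and with Cd. The 1 lower locus, VTL1, became 0 at 4-fold in both conditions. The 1 response difference above 0, that of ZIP9, became 0 at loci with 1 reference transcript, because ZIP9 has 2. Depth limits loci under about 2 RPKM, such as PHT3;2, CAT5 and BOR5.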

Other observations

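Other members of the transporter families that the wording of the choice missed were listed as well. CHX16, for a cation and proton exchanger, was higher with Cd in both genotypes: it had 26.7 RPKM with Cd and 12.8 RPKM without in ein3eil1, 2.09-fold (1.88 to 2.32), and 24.2 and 12.1 RPKM in Col, 2.002-fold (1.80 to 2.22). It was the 1 listed gene among 28 CHX genes. Some families held a gene that was higher in ein3eil1 and not listed in Col. MTPA1, of the zinc-exporting metal tolerance family, had 30 reads with Cd and 2 without, 15.2-fold higher (3.85 to 131). The purine permease gene PUP19 had 55 and 19 reads, 2.93-fold higher (1.71 to 5.22), the 1 listed gene of 20 PUP genes. The potassium uptake gene KUP9 had 45 and 14 reads, 3.25-fold higher (1.75 to 6.41), though it stayed under 1 RPKM in both libraries. Whether these responses differ between the genotypes was not tested.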
